A study of Mus musculus with 16 samples.

Results

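The GDNF and neurotrophin systems were followed through 9 of the 19938 genes measured: the receptor tyrosine kinase Ret, the co-receptors Gfra1 and Gfra2, the ligands Gdnf and Nrtn, the neurotrophin Bdnf, and the neurotrophin receptors Ntrk2, Ntrk3 and Ngfr. They were taken by gene symbol, and each of the 9 had a single probe set that carried its symbol alone. Of the 9, the receptors Ret, Gfra1 and Gfra2 and the ligand Bdnf were lower, and the receptor Ntrk2 was higher, in the iPSC-derived cells than in the primary neurons. In the main fit, on all arrays, the other 4 differed from primary neurons by no more than 0.14 on the log2 scale. None of the 9 passed the test between the treated and the control cells.

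Ligands of the GDNF family bind co-receptors that are anchored to the membrane by a lipid, and the pair then activates Ret. Gfra1 prefers GDNF and Gfra2 prefers neurturin, the product of Nrtn. BDNF activates TrkB, encoded by Ntrk2, neurotrophin 3 activates TrkC, encoded by Ntrk3, and Ngfr encodes p75, which binds all neurotrophins. GDNF and BDNF are known as survival factors of midbrain dopaminergic neurons, which carry Ret and Gfra1, while much of the GDNF that reaches them comes from the striatum, their target.

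RNA was measured on 16 Affymetrix gene arrays, and all cells came from mice, or from induced pluripotent stem cells (iPSCs) of mice, with the genotype Pitx3GFP/+ and the mixed strain C57BL/6 x 129/Ola. Pitx3 is a transcription factor of midbrain dopaminergic neurons, and the GFP at its locus served to sort them. The treated group held 5 biological replicates differentiated from iPSCs with recombinant human WNT1 and DKK3, and the control group held 5 without them. Primary neurons were sorted from the ventral midbrain at E13.5 (3 technical replicates) and at E14.5 (3 technical replicates). WNT1 is a ligand of Wnt receptors, and DKK3 belongs to the Dickkopf proteins, which cells secrete. Doses, days in culture, the number of iPSC lines and the number of embryos behind each stage were not given in the sources used here. The sort is named in the sample labels for the primary cells, and in the design text also for the iPSC-derived cells. Each stage was a single sample with technical arrays, and whether the biological replicates were separate cultures was not given, so that p-values measure only how far these samples differ among themselves.

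The label of the iPSC-derived cells was set against marker genes. All 10 of 10 dopaminergic markers were lower than in primary neurons, in control and in treated cells. Their mean level was between 5.83 and 6.15 on the treated arrays numbered 1 to 4 and between 5.93 and 6.11 on the control arrays numbered 1 to 4. Arrays numbered 5 stood apart, at 7.82 (treated) and 7.47 (control), and primary arrays lay between 9.54 and 9.95. Tyrosine hydroxylase (Th), the rate-limiting enzyme of dopamine synthesis, averaged 6.33 ± 1.26 (SD, n = 5) in control cells and 11.2 in primary neurons. Markers of neurons gave the same order, with 6 of 6 lower in both iPSC-derived groups. All 8 of 8 mesenchyme markers were higher, at 8.86 to 9.96 on iPSC-derived arrays and 5.51 to 5.83 on primary ones. All 4 of 4 epithelial markers were also higher, at 8.74 to 10.79 against 5.93 to 6.12, and so were 4 of 6 choroid plexus markers, at 7.03 to 8.18 against 5.50 to 6.00. The mean of 4 pluripotency markers was 7.60 to 9.11 on iPSC-derived arrays 1 to 4 and 5.09 to 5.87 on primary arrays. On arrays 5 it was 5.39 (treated) and 5.55 (control). None of these 4 passed the test with all arrays, and all 4 were higher without arrays 5. Every comparison with primary neurons below is therefore one with cells low in dopaminergic and neuronal markers, and in such bulk samples fewer cells of a type and less RNA per cell cannot be told apart.

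Promoters of 6 of the 9 genes were listed in RefSeq (GRCm38.p6): Gfra1, Gdnf, Nrtn, Bdnf, Ntrk2 and Ngfr. The 250 bases before the start are shown for 1 gene that was lower (Gfra1, chr19:58455399-58455648, minus strand), 1 that was higher (Ntrk2, chr13:58806319-58806568, plus strand) and 1 that stayed within 0.04 of primary neurons (Ngfr, chr11:95587699-95587948, minus strand). Capitals mark GGGCGG, the GC box, on either strand.
Gfra1: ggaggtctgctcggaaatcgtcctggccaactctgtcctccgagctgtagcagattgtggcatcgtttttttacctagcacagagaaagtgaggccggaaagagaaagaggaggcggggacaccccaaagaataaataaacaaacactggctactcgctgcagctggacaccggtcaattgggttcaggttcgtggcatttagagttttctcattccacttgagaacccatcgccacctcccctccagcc
Ntrk2: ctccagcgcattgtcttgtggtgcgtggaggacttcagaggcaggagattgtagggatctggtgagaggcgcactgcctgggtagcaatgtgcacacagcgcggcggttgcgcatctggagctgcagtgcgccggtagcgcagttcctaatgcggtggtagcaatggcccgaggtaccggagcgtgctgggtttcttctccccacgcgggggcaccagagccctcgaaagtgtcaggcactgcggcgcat
Ngfr: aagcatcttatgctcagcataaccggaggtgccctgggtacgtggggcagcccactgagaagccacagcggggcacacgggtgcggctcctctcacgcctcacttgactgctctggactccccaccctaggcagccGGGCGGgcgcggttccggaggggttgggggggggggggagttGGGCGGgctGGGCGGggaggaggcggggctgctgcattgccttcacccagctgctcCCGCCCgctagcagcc
The GC box was found at 4 places before Ngfr and at none before Gfra1 or Ntrk2, and 32.7% of all 32851 promoters held it. Before Nrtn it was found once, and of the 7 listed starts of Bdnf it was found before 2. The other motifs searched on both strands were the NR4A element AAAGGTCA (in 1.34% of all promoters), the forkhead motif TGTTTAC (3.17%), the homeodomain core TAATTA (4.84%) and the cAMP response element TGACGTCA (1.55%). None of these exact letters stood in the 13 windows of the 6 genes. Variants of the motifs were not searched and may be present, and the search says nothing about binding elsewhere. The share of G and C was 52.4% before Gfra1, 62.8% before Ntrk2 and 70.4% before Ngfr.

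**Figure D1:**
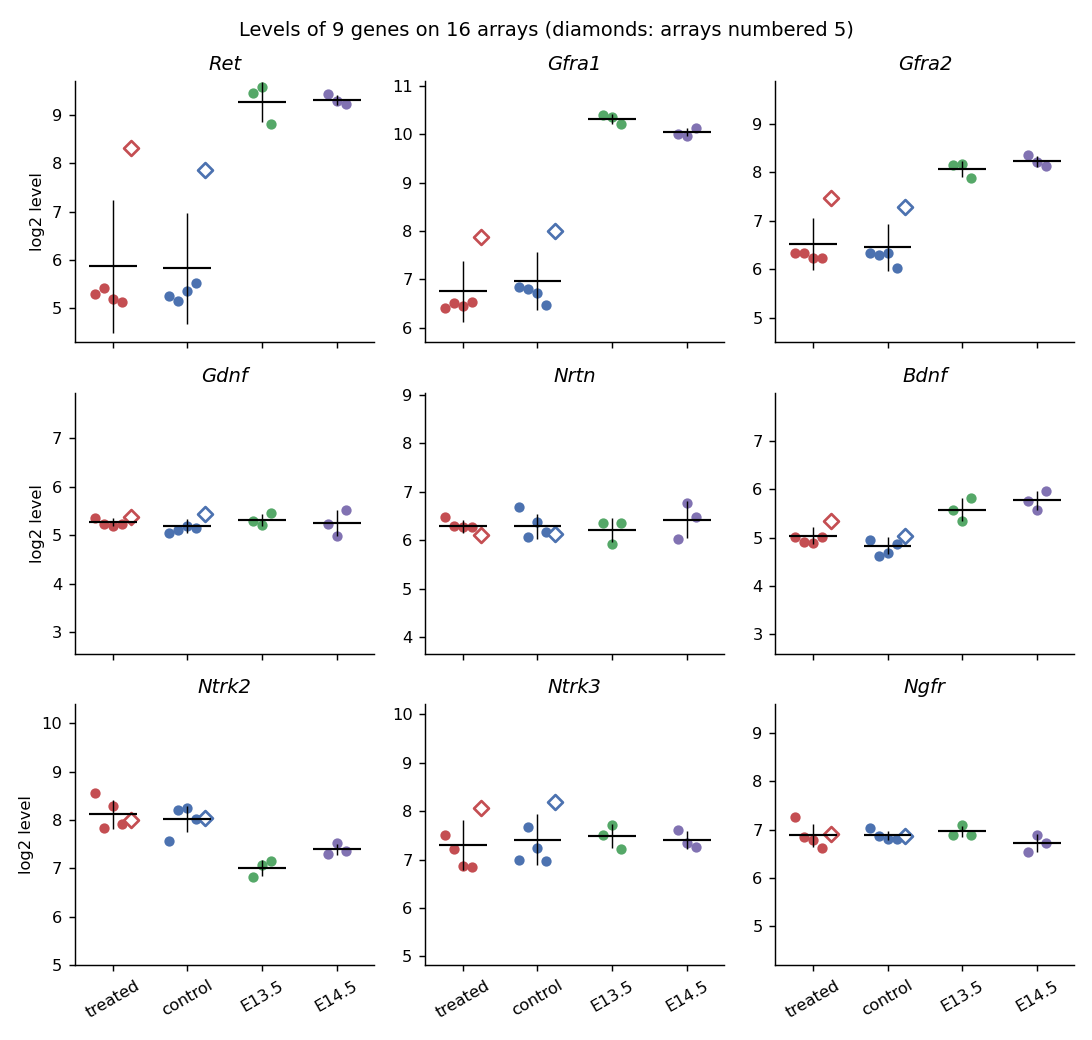
Log2 level (vertical axis, the same span in every panel) of each of the 9 genes on the 16 arrays, by group. Points are arrays, open diamonds the arrays numbered 5, horizontal bars group means and vertical bars SD. Ret, Gfra1 and Gfra2 lay lowest on iPSC-derived arrays 1 to 4, higher on arrays 5 and highest on primary arrays, while Ntrk2 was higher on all 10 iPSC-derived arrays than on the 6 primary ones.

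Ret, the receptor kinase that GDNF family ligands share, had log2 levels of 5.29, 5.42, 5.20, 5.13 and 8.31 on treated arrays 1 to 5. On control arrays 1 to 5 it was at 5.26, 5.16, 5.35, 5.52 and 7.86. It was at 9.44, 9.57 and 8.80 at E13.5 and at 9.43, 9.28 and 9.23 at E14.5. All 10 iPSC-derived arrays were below all 6 primary arrays, and on 4 of 5 arrays of each iPSC-derived group Ret was below the array's median over genes. The difference from primary neurons was -3.46 (SE 0.86, 95% interval -5.34 to -1.59) in control cells, an 11.0-fold lower level, with adjusted p = 0.00673 by limma. In treated cells it was -3.42 (SE 0.86, adjusted p = 0.00727). Ret fell short of the threshold against a single stage: against E13.5 alone the adjusted p was 0.0516 in control and 0.0550 in treated cells, and against E14.5 alone 0.0502 and 0.0529. Without the arrays numbered 5 the difference was -3.97 (SE 0.13, adjusted p = 4.36e-09) in control and -4.03 (adjusted p = 3.90e-09) in treated cells.

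Gfra1, the co-receptor preferred by GDNF, was at 6.40, 6.51, 6.44, 6.53 and 7.87 on treated arrays 1 to 5 and at 6.84, 6.81, 6.72, 6.46 and 7.99 on control arrays 1 to 5. At E13.5 it was at 10.39, 10.35 and 10.20, and at E14.5 at 10.01, 9.97 and 10.13. The highest iPSC-derived array was thus below the lowest primary array, at 7.99 against 9.97. Its difference from primary neurons was -3.21 (SE 0.43, 95% interval -4.14 to -2.28, adjusted p = 7.25e-05) in control cells, which is 9.26-fold lower. In treated cells it was -3.43 (SE 0.43, adjusted p = 4.41e-05), or 10.8-fold lower.

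Gfra2, the co-receptor preferred by neurturin, was at 6.34, 6.34, 6.23, 6.23 and 7.47 on treated arrays 1 to 5 and at 6.33, 6.30, 6.33, 6.02 and 7.29 on control arrays 1 to 5. It reached 8.15, 8.18 and 7.89 at E13.5 and 8.36, 8.22 and 8.13 at E14.5. The groups again did not overlap between iPSC-derived and primary arrays, with a smaller gap than for Gfra1. Control cells were lower by -1.70 (SE 0.36, adjusted p = 0.00222), a 3.25-fold difference, and treated cells by -1.63 (SE 0.36, adjusted p = 0.00294).

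The levels of all 3 receptor genes moved with the arrays numbered 5. On these, Ret exceeded the mean of the other 4 arrays of its group by 3.05 (treated) and 2.54 (control), Gfra1 by 1.40 and 1.28, and Gfra2 by 1.18 and 1.04. The dopaminergic markers were also higher there, as given above, and so were the neuronal markers, at 9.04 and 8.62 against 6.51 to 7.09 on the other iPSC-derived arrays. The pluripotency markers were lower, at 5.39 and 5.55 against 7.60 to 9.11. Muscle markers were higher on arrays 5, at 7.45 and 6.68 against 6.14 to 6.48, and mesenchyme markers too, at 9.86 and 9.96 against 8.86 to 9.80. Epithelial markers were lower, at 8.74 and 8.97 against 9.46 to 10.79. Markers of astrocytes and radial glia, of neural crest and Schwann cells and of endothelium and pericytes were also lower than on any other array of the same group. Of the 9 genes, 6 had both arrays 5 above the 8 other iPSC-derived arrays, beside 11.5% of all genes. Besides the 3 receptors these were Ntrk3, higher by 0.97 in both groups, Bdnf by 0.38 and 0.26, and Gdnf by 0.12 and 0.31. For Gdnf the margin was slight, with treated array 5 at 5.369 and the highest other treated array at 5.357. The part of the markers in these differences was not tested.

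**Figure D2:**
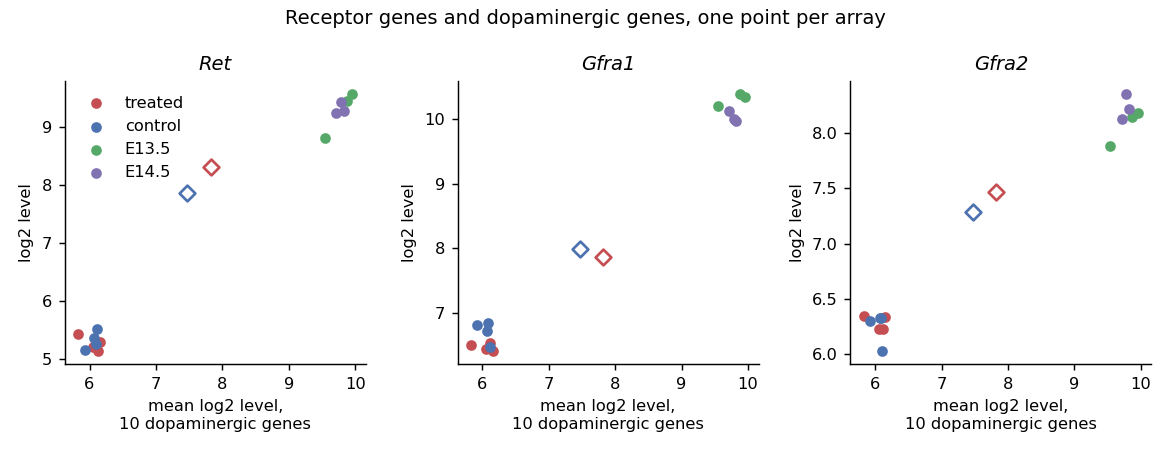
Level of Ret, Gfra1 and Gfra2 (vertical axes, log2) against the mean log2 level of the 10 dopaminergic markers (horizontal axes) on each array, coloured by group, with open diamonds for arrays numbered 5. Arrays 5, with marker means of 7.82 and 7.47, lay between the other iPSC-derived arrays and the primary arrays for each receptor.

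The genes whose levels over the 12 samples were most like those of these receptors were found by the root mean square difference of levels, each centred on its own mean. For Ret, which spanned 4.19 on the log2 scale, these were Gabrb2 (0.20), Cacng3 (0.26) and Tubb3 (0.28). For Gfra1 they were Lmo3 (0.17), Ppfia2 (0.18) and Gng2 (0.19), and for Gfra2 they were Slc12a5 (0.14), Fgf12 (0.16) and Pdxp (0.16). Gabrb2, the nearest to Ret, averaged 5.75 in control cells and 9.19 in primary neurons. The other 6 genes spanned less than 2 and were not matched.

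Gdnf, the ligand that gives the family its name, was low on all arrays. Its levels lay between 5.18 and 5.37 on treated, 5.05 and 5.43 on control, 5.20 and 5.45 on E13.5 and 4.98 and 5.51 on E14.5 arrays, so that all 4 groups overlapped. It was below the median over genes on every array. The difference between control cells and primary neurons was -0.10 (95% interval -0.34 to 0.15, adjusted p = 0.504), and with array medians set equal it was -0.28 with an adjusted p of 0.0466. Nrtn ranged from 6.06 to 6.69 in control cells, from 6.12 to 6.48 in treated cells and from 5.93 to 6.77 on primary arrays. It differed between control cells and primary neurons by -0.03 (95% interval -0.39 to 0.32, adjusted p = 0.875). Levels of Gdnf and Nrtn thus overlapped between iPSC-derived and primary arrays, while those of their preferred co-receptors Gfra1 and Gfra2 did not.

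Bdnf, the ligand of TrkB, was at 5.02, 4.92, 4.90, 5.02 and 5.34 on treated arrays 1 to 5 and at 4.95, 4.63, 4.69, 4.87 and 5.04 on control arrays 1 to 5. It was at 5.58, 5.35 and 5.82 at E13.5 and at 5.76, 5.58 and 5.97 at E14.5. All iPSC-derived arrays were below all primary arrays, but only narrowly: the highest of the first was 5.340 and the lowest of the second 5.345. Bdnf was below the median over genes on every array, and in the lowest 25% of genes on 3 control arrays and 1 treated array, so that it was a low signal in all groups. Control cells were lower than primary neurons by -0.84 (SE 0.15, 95% interval -1.16 to -0.52, adjusted p = 6.0e-04), and treated cells by -0.64 (SE 0.15, adjusted p = 0.00404). In treated cells the difference from E13.5 alone was -0.54 with an adjusted p of 0.0612.

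Ntrk2, which encodes TrkB, was the 1 gene of the 9 that was higher in the iPSC-derived cells. It was at 8.56, 7.83, 8.28, 7.91 and 7.99 on treated arrays 1 to 5, and at 7.57, 8.20, 8.25, 8.03 and 8.04 on control arrays 1 to 5. It was at 6.83, 7.07 and 7.15 at E13.5 and at 7.30, 7.53 and 7.37 at E14.5. All 10 iPSC-derived arrays were above all 6 primary arrays, and arrays 5 lay within the range of the others, unlike for the GDNF receptors. Control cells were higher by 0.81 (SE 0.22, 95% interval 0.33 to 1.29, adjusted p = 0.0106), or 1.75-fold, and treated cells by 0.91 (SE 0.22, adjusted p = 0.00547), or 1.88-fold. Against E14.5 alone the difference was 0.62 (adjusted p = 0.138) in control and 0.72 (adjusted p = 0.0894) in treated cells. A single probe set for the gene does not separate full-length TrkB from forms that lack the kinase, and glial cells are known to carry mainly the latter. Of the markers of astrocytes and radial glia, 5 of 7 were higher and 1 was lower in control cells than in primary neurons, with mean levels of 8.74 to 9.81 on iPSC-derived and 6.43 to 7.16 on primary arrays. Their part in the level of Ntrk2 was not tested.

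Ntrk3, which encodes TrkC, overlapped between all groups. It ranged from 6.84 to 8.07 on treated, from 6.97 to 8.19 on control and from 7.22 to 7.71 on primary arrays, and its highest value in each iPSC-derived group was on array 5. Control cells and primary neurons differed by -0.03 (SE 0.36, 95% interval -0.81 to 0.75, adjusted p = 0.954). Without arrays 5 the difference from primary neurons was -0.22 (adjusted p = 0.437 by limma) in control and -0.33 (adjusted p = 0.241) in treated cells. Ngfr, which encodes p75, lay between 6.62 and 7.26 on iPSC-derived and between 6.53 and 7.10 on primary arrays, with a difference of 0.04 (95% interval -0.29 to 0.36, adjusted p = 0.848) in control cells. Of 4 measured markers of neural crest and Schwann cells, which are known to carry p75, 2 were higher in control cells than in primary neurons. These were Erbb3 (by 2.13) and Ednrb (3.36), while Sox10 (0.15) and Foxd3 (-0.04) did not pass the test.

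Among the 9 genes, 4 were lower in control cells than in primary neurons, beside 22.5% of all genes, and 1 was higher, beside 19.3%. In treated cells 4 were also lower, beside 21.3% of all genes, and 1 was higher, beside 19.9%. The 4 lower genes had every iPSC-derived array below every primary array, as had 12.7% of all genes, and Ntrk2 had every one above, as had 14.1%. The median difference of the 9 in control cells was -0.10, beside -0.11 over all genes. Treated and control cells share the primary samples in these comparisons, and their agreement is not independent. Setting array medians equal moved the median of all genes to -0.30 in control and in treated cells, and left 3046 genes higher and 8833 lower in control cells, against 3855 and 4491 without it. The calls of Ret, Gfra1, Gfra2, Bdnf and Ntrk2 held under that scaling, with -3.65, -3.40, -1.89, -1.03 and 0.62 in control cells.

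**Figure D3:**
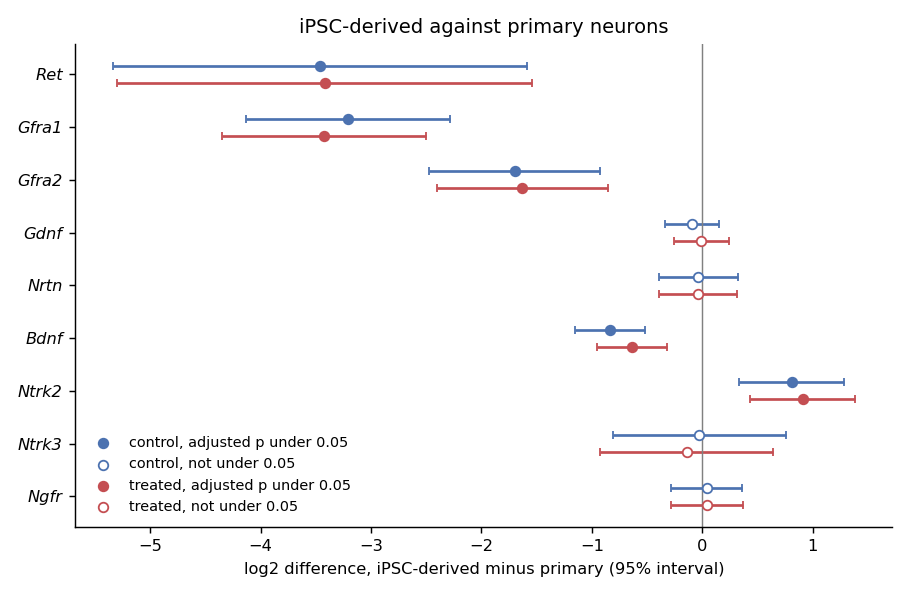
Difference from primary neurons (horizontal axis, log2) of each of the 9 genes in control and in treated cells. Bars are 95% intervals, and points are filled where the adjusted p was under 0.05. Ret, Gfra1, Gfra2 and Bdnf lay below 0 and Ntrk2 above it in both groups, and Ret had the widest intervals, from -5.34 to -1.59 in control cells.

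The comparison of treated with control cells asked whether WNT1 and DKK3 in the culture changed these genes. None of the 9 passed the test, and 0% of all genes did. By limma, 300 of all 19938 genes, and none of the 9, had an unadjusted p under 0.05. Chance alone would give a share of 0.05, which is more than this. The lack of calls therefore does not show that nothing changed. Bdnf had the smallest unadjusted p of the 9, 0.101, with means of 5.04 ± 0.18 (SD, n = 5) in treated and 4.84 ± 0.18 (SD, n = 5) in control cells and a difference of 0.20 (SE 0.11, 95% interval -0.05 to 0.45). For Ret the means were 5.87 ± 1.37 (SD, n = 5) and 5.83 ± 1.15 (SD, n = 5), and the interval of the difference, -1.47 to 1.55, left room for a change in either direction. That width came with arrays 5: without both of them the interval was -0.30 to 0.18, without the treated array 5 alone the difference was -0.57, and without the control array 5 alone it was 0.55. Over all genes the deviations of treated and control array 5 correlated at 0.798. The main fit did not take same-numbered arrays as pairs, so its intervals include spread that such arrays share. Gfra2 differed by 0.07 (95% interval -0.55 to 0.69), Gdnf by 0.09 (-0.11 to 0.28), Ntrk2 by 0.10 (-0.27 to 0.46), Ntrk3 by -0.11 (-0.74 to 0.51) and Ngfr by 0.00 (-0.25 to 0.25). Nrtn had means of 6.28 ± 0.13 and 6.29 ± 0.26 (SD, n = 5 each). With the replicate number as a block in the limma fit, 2 of the 9 and 834 of all genes had an unadjusted p under 0.05. None of the 9 passed the test with the block either. Bdnf was higher on each treated array than on the control array of the same number. Each other member was higher for some numbers and lower for others.

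Gfra1 was lower in treated than in control cells by -0.22 (95% interval -0.96 to 0.52), which did not pass the test. Without the arrays numbered 5 it was lower by -0.24 (SE 0.10, 95% interval -0.47 to -0.01), with an unadjusted p of 0.0429 and an adjusted p of 1.00 by limma. The 4 treated arrays then lay between 6.40 and 6.53 and the 4 control arrays between 6.46 and 6.84, so that the ranges overlapped by 1 control array. It was the 1 gene of the 9 with an unadjusted p under 0.05 by limma in that setting, beside 326 of all 19938 genes. The setting was 1 of 17 alternatives for this comparison.

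**Figure D4:**
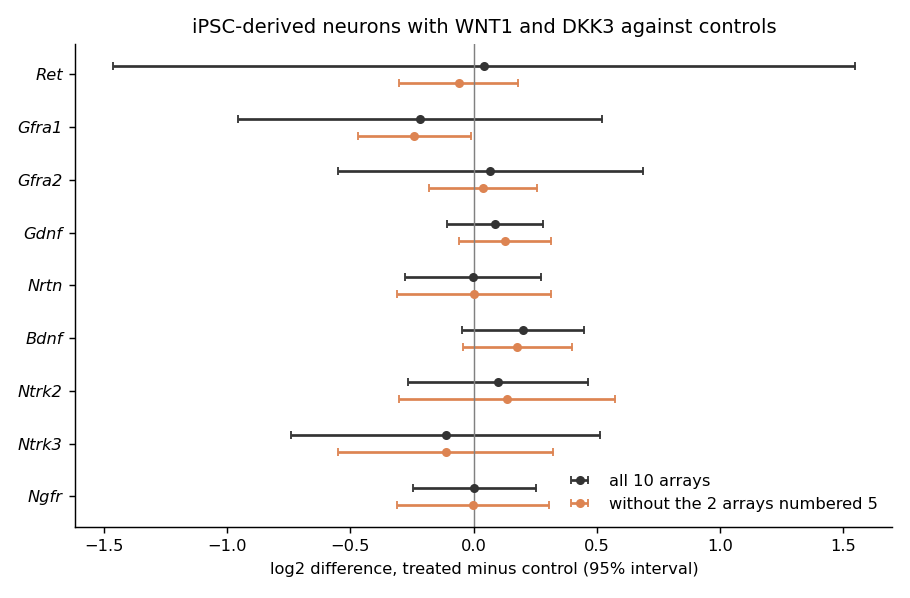
Difference between treated and control cells (horizontal axis, log2) of each of the 9 genes, with 95% intervals, for all 10 arrays and without the arrays numbered 5. All intervals with 10 arrays include 0, and that of Ret, from -1.47 to 1.55, is the widest.

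Between E13.5 and E14.5 no test was possible, since each stage was 1 sample. None of the 9 genes differed by 1 or more on the log2 scale with separate arrays, the size used to call a difference, beside 0.176% of all genes higher and 0.0652% lower at E14.5. For 2 of the 9 the E13.5 and E14.5 arrays were fully separate, beside 9.68% of all genes. Gfra1 was lower at E14.5 by -0.28 (10.32 ± 0.10 and 10.04 ± 0.08, SD, n = 3 technical arrays each), and Ntrk2 was higher by 0.38 (7.01 ± 0.17 and 7.40 ± 0.12). Ret differed by 0.04, Gfra2 by 0.16, Bdnf by 0.19, Nrtn by 0.21, Ngfr by -0.24, and Gdnf and Ntrk3 by -0.08 each, with overlapping arrays.

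In the order of group means, Ret, Gfra2 and Bdnf shared 1 sequence, E14.5, E13.5, treated and control, in which only the step from E13.5 to treated separated all arrays. For Gfra1 the order was E13.5, E14.5, control and treated, and control and treated overlapped. For Ntrk2 it was treated, control, E14.5 and E13.5, with overlap between treated and control alone. For Gdnf, Nrtn, Ntrk3 and Ngfr every pair of neighbours overlapped.

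Other genes of both pathways were counted from 6 lists, over the 49 genes analysed here. None of the 49 passed the test between treated and control cells, and none had an unadjusted p under 0.05 by limma. In control cells 15 fell below and 9 rose above primary neurons, and 25 passed in neither direction. In treated cells the counts were 16 lower and 9 higher. Over all genes 22.5% were lower and 19.3% higher in control cells, and 21.3% and 19.9% in treated cells. The count higher was thus near that of all genes, and the counts of the single lists are to be read against the same shares. Without arrays 5 these were 17 lower and 11 higher in control and 16 lower and 10 higher in treated cells.

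None of 5 further ligands and receptors of the GDNF family passed the test in control cells. The differences of the co-receptors were -0.31 for Gfra3 (adjusted p = 0.0785) and -0.34 for Gfral (adjusted p = 0.0530), and that of the ligand Artn was -0.44 (adjusted p = 0.0963). Of 3 further neurotrophin genes, the sorting receptors Sort1 and Sorcs2, which bind proneurotrophins with p75, were lower by -1.20 (SE 0.22, adjusted p = 8.8e-04) and by -0.66 (adjusted p = 0.0100). Ntf5, another ligand of TrkB, differed by 0.17 (adjusted p = 0.275). Both sorting receptors that pair with p75 were thus lower in cells in which Ngfr itself did not pass the test.

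Of 8 membrane partners 5 were lower and 1 higher. Ncam1, an adhesion molecule that also binds GDNF, averaged 9.10 in treated, 9.03 in control and 11.3 in primary cells, a difference of -2.26 (SE 0.33, adjusted p = 1.6e-04) in control cells. Sdc3, a heparan sulfate proteoglycan that binds GDNF, was lower by -2.15 (SE 0.32, adjusted p = 1.8e-04), and Lingo1, a partner of p75, by -2.06 (SE 0.36, adjusted p = 5.9e-04). Lrig1, which restrains receptor kinases including Ret, was higher by 1.76 (adjusted p = 2.71e-05). The median of the list was -1.18, beside -0.11 over all genes.

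Of 14 adaptors, which couple receptor kinases to signalling inside the cell, 7 were lower and 2 higher in control cells. The Shc adaptors went in opposite directions: Shc1 was higher by 2.34 (SE 0.19, adjusted p = 1.72e-06), with means of 7.92 in treated, 7.96 in control and 5.62 in primary cells, and Shc2 was lower by -1.64 (SE 0.21, adjusted p = 5.61e-05). Gab1 was higher by 2.03 (SE 0.20, adjusted p = 5.93e-06). These adaptors serve many receptors and are not particular to Ret or the Trk receptors.

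Of 12 feedback and target genes of ERK signalling, 3 were higher and 1 lower in control cells, and 3 higher and 2 lower in treated cells. Dusp4, a phosphatase of MAP kinases, was lower by -3.38 (SE 0.27, adjusted p = 1.30e-06), from 10.3 in primary to 6.92 in control and 7.19 in treated cells. Spry2, a feedback inhibitor, was higher by 1.71 (SE 0.21, adjusted p = 4.71e-05) and the transcription factor Etv5 by 1.33 (SE 0.40, adjusted p = 0.0182). Between the stages, each of which was 1 sample, Egr1 and Fos of this list were called, higher at E14.5 by 1.09 and 1.14. The other 10 genes of the list were not called. Of 7 other trophic factors 3 were higher and none lower: the heparin-binding factors Mdk by 3.17 (SE 0.15, adjusted p = 2.23e-08) and Ptn by 1.91 (SE 0.20, adjusted p = 9.44e-06), and Manf by 0.64 (SE 0.17, adjusted p = 0.00935). Mdk averaged 10.9 in treated, 10.8 in control and 7.67 in primary cells.

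**Figure D5:**
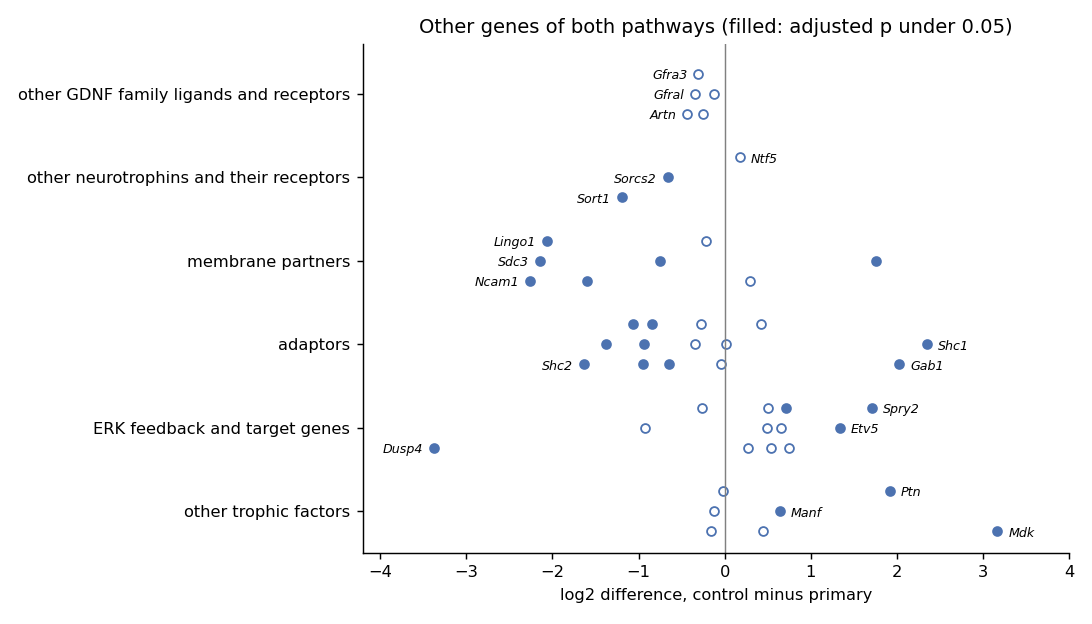
Difference between control cells and primary neurons (horizontal axis, log2) of the 49 other genes of both pathways, by list, filled where the adjusted p was under 0.05. Membrane partners lay mostly below 0, while Mdk (3.17) and Dusp4 (-3.38) were the points farthest from 0 on either side.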

How the data were processed

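The authors deposited log2 expression values of 35556 probe sets on 16 arrays. RMA (background correction, quantile normalization and probe summary) and Affymetrix Expression Console 1.2 are named in the submitters' processing notes. The sources used here do not say whether 1 RMA run covered all arrays. RNA from RNeasy kits was amplified (Ovation PicoSL WTA System V2, per the labels' protocols), which can add spread between arrays. After RMA, levels are relative within an array, and levels of different probe sets were not compared. No file gave detection calls, and the number of arrays limits the precision. Array medians over all 35556 probe sets lay between 5.85 and 6.02. The scaling that set array medians equal, and the medians over genes named above, used the 19938 genes instead.

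A platform table named 21789 probe sets with 1 symbol, with symbols updated by Entrez ID through RefSeq (GRCm38.p6). A gene with several probe sets was represented by that of the highest mean over all arrays, for 19938 genes in all. The test was limma 3.58.1 (lmFit and eBayes, R 4.3.3), checked on simulated data, at a threshold of 0.05 after Benjamini-Hochberg adjustment over all genes. The treated and control groups were compared on their 10 arrays. The fit that included primary neurons held 12 samples in 3 groups, with each stage as the mean of its 3 arrays. The members and lists were chosen with earlier results of these data known. Named from each list were the 3 genes with the largest difference from primary neurons in control cells, and for each member spanning at least 2 on the log2 scale the 3 most like it. Lrig1, Egr1 and Fos were named after their values were seen. Alternatives left out each array, both arrays numbered 5 or the lowest 25% of genes, set array medians equal, or averaged all probe sets of a gene. Others used a replicate block, an intensity trend or array weights, or E13.5 or E14.5 alone as primary. The last ones fitted only the 2 groups compared, or took all 6 primary arrays as samples, which treats technical arrays as replicates.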

Additional observations from a re-analysis of the deposited data

Results flagged for a closer look

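In 7 of 18 groups of 5 arrays, the array numbered 5 stood apart from the other 4 by its gap to the nearest array, set against the whole range of the group. Chance flags about 5% of such groups, and the 9 genes were measured on the same arrays, so that these groups are not independent. Ret was at 8.314 on treated array 5, with the nearest array at 5.419, and at 7.863 on control array 5, with the nearest at 5.515. Gfra1 was at 7.868 on treated array 5 (nearest 6.526) and at 7.992 on control array 5 (nearest 6.840). Gfra2 was at 7.467 on treated array 5 (nearest 6.343) and at 7.285 on control array 5 (nearest 6.329). Bdnf was at 5.340 on treated array 5, with the nearest array at 5.016.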

How the results depend on the processing

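Against primary neurons, 185 of the alternative values of the 9 genes kept their side of the threshold in control cells and 185 in treated cells, while 3 and 4 lost the call and 1 gained it (Gdnf in control cells, array medians equal). Called genes kept their direction, and genes not called changed sign in some alternatives: in control cells Ngfr in 3, Nrtn in 4 and Ntrk3 in 4, and in treated cells Gdnf in 4, Ngfr in 3 and Nrtn in 3. Treated against control, the 9 genes stayed uncalled in all 153. Some alternatives could hardly change these counts. Each of the 9 had a single probe set, so averaging probe sets left its values as they were. Leaving out a treated array left the difference of control cells from primary neurons as it was, and leaving out a control array that of treated cells. With E14.5 alone as primary, the count of the 9 that were higher went from 1 to 0 in both groups, and with E13.5 alone the count lower in treated cells went from 4 to 2. Over all genes, the number lower in control cells was 4491, and 8833 with array medians equal, 2847 against E13.5 alone and 2743 against E14.5 alone. In treated cells it was 4241, and 8787, 2722 and 2622. Between the stages, 35 genes were higher and 13 lower at E14.5, and 301 and 225 with a minimum difference of 0.5. Leaving out 1 array gave 49 to 70 higher and 19 to 38 lower. Same-numbered treated and control arrays had correlated deviations of 0.045, 0.52, 0.435, 0.718 and 0.798, and 3 of 5 treated and 4 of 5 control arrays correlated best with their own number. The labels state no pairing, so the numbers were not taken as pairs in the main fit, although all but number 1 correlated. With the replicate block 1 gene of all was called instead of 0, 834 instead of 300 had an unadjusted p under 0.05 by limma, and 2 of the 9 did. The block changed no call of the 9 genes in any comparison. The cause of these shifts was not tested.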
